A study of Mus musculus with 4 samples.

Results

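Ikzf1, Irf4, Bach2, Foxo1, Mef2d, Tcf4, Bcl11a and Ets1 encode transcription factors that B cells and their progenitors depend on, and Ago2-bound RNA of each was listed in the authors' comparison. Every row with one of these 8 gene symbols was taken, which gave 15 of 2548 features, the 2548 belonging to 1848 genes. A feature is a stretch of a transcript at which reads were counted. Foxo1 had 4 features, Ikzf1, Irf4, Bach2 and Mef2d had 2 each, and Tcf4, Bcl11a and Ets1 had 1 each. Features are numbered here within a gene from the highest deposited mean, and features of 1 gene share its transcripts and are not independent.

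The reads come from PAR-CLIP of Ago2, in which cells take up the photoreactive nucleoside 4-thiouridine, ultraviolet light links RNA to the protein that holds it, and RNA recovered with the protein is sequenced. There were 4 libraries, 2 of wild-type cells and 2 of cells of the genotype Bim3'UTRmut/mut, in which both copies of the 3' untranslated region of Bim carry a mutation. All 4 came from B cell progenitors of C57BL/6 fetal liver at stage E14.5 that had been transformed with a retrovirus carrying the Abelson kinase and grown in culture, so every group shares this transforming kinase. The labels name the 2 libraries of each genotype biological replicates, and whether a line was 1 clone or a pool is not given in the sources used here. The comparison asks how Ago2 binding differs when the Bim 3' untranslated region is mutated. RNA levels were not analysed here, so less Ago2 binding and less of a transcript cannot be told apart.

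Ago2 is the Argonaute protein that holds a microRNA and uses it to find target transcripts, mainly in their 3' untranslated regions, where base pairing by the microRNA's seed leads to repression and decay of the target. B lineage transcription factors act in layers. Ikaros (Ikzf1) and the E proteins open the lymphoid and B cell programme, Foxo1 drives the interleukin receptor and recombinase genes, and Irf4 and Bach2 act at the pre-B cell checkpoint and again in mature B cells. Abelson-transformed cells are a classical model of the stage between pro-B and pre-B cells.

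For 3 of these genes, microRNAs that repress them have been described: miR-155 for Bach2, miR-125b for Irf4, and miR-182 and miR-96 for Foxo1. Their mature sequences, from RefSeq on GRCm38.p6, are given because Ago2 is known to reach targets through such pairing. The mature miR-155-5p is encoded at chr16:84714143-84714165 on the plus strand, and miR-182-5p and miR-96-5p at chr6:30165962-30165986 and chr6:30169506-30169528 on the minus strand. The same miR-125b-5p is encoded on the plus strand at 2 loci, chr9:41581940-41581961 and chr16:77646279-77646300. Capitals mark the seed, bases 2 to 8.
mmu-miR-155-5p: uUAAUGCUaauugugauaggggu
mmu-miR-125b-5p: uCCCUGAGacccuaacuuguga
mmu-miR-182-5p: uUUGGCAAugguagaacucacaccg
mmu-miR-96-5p: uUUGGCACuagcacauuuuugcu
The 7-base target site that pairs with the seed is AGCATTA for miR-155, CTCAGGG for miR-125b, TTGCCAA for miR-182 and GTGCCAA for miR-96. Which microRNA occupied each feature was not analysed here.

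For each feature the deposited table gives its mean, its log2 fold change (mutant relative to wild type) and its unadjusted p. Standard errors and 95% intervals beside these fold changes were derived here from the fold change and its p, and were not given by the authors. They take that p to come from a normal test of that fold change. The deposited log2 fold changes lie nearer 0 than the ratio of the recovered means in 95.4% of the 2240 features read on both sides, so they understate the difference between means. From the means, the whole reads of each library could be recovered for all 2548 features. The wild-type libraries are called Wa and Wb and the mutant-side libraries Ma and Mb, a side set by the sign of the deposited fold changes, and which replicate number each has is not known. Where 4 values follow each other without names, they are those of Wa, Wb, Ma and Mb in that order. Reads in listed features numbered from 14539 in Mb to 160207 in Wa. Normalized reads are reads divided by the library's size factor, so 1 read in Mb is 2.21 normalized reads. At Bim itself (Bcl2l11), the 2 features with the lowest deposited log2 fold changes, -2.78 and -2.74, held 1 read each in Ma and 0 in Mb. The wild-type libraries held 11 to 53 reads there. After normalization these were 6.79 to 18.4 in the wild-type libraries and 1.62 in Ma, while a 0 in Mb allows up to 6.63. These 2 features were picked by their fold change, so they are no independent check of the mutation. The best-read of the 8 Bim features held 183, 183, 9 and 44 reads, and the 8 together summed to 88.6, 216.5, 34.0 and 103.9 normalized reads, so over all Bim features Mb lay between Wa and Wb. Intervals for a single library are exact 95% Poisson intervals, cover counting error only, and take reads as independent molecules, although removal of PCR copies is not given in the sources used here. For 0 reads the upper limit used is 3 reads throughout, which is 6.63 normalized reads in Mb and 4.86 in Ma.

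Library Mb stood apart from the others. Over the 2548 features (no independent replicates), its log2 normalized reads correlated with the other libraries at 0.14 to 0.26, against 0.74 to 0.83 among Wa, Wb and Ma. Of 11 stromal and hepatocyte markers, 4 had features (Vim, F3, Pdgfra and Thbs1), and these summed to 4.35, 8.29, 11.3 and 501.9 normalized reads. Pdgfra and Thbs1, a growth factor receptor gene of mesenchymal cells and a matrix protein gene, had 0 reads in Wa, Wb and Ma. Alb and Afp, which define hepatocytes, had no listed feature. Of 12 B lineage markers, Il7r and Rag1 had features, with 5.16, 5.53, 4.86 and 0 normalized reads in the 4 libraries. The values of Wa, Wb and Ma were below the 6.63 that a 0 in Mb allows, so this 0 says little. Cd79a, Ebf1 and Pax5 had no feature listed. No myeloid or erythroid marker had a listed feature, and of the T cell markers only Bcl11b had one. The part that these differences play in the results for Mb was not tested, and the results are therefore given with and without Mb. For that, limma's voom, a linear model on log2 reads weighted by their precision, was fitted to the recovered reads of all features. A fit without Ma or Mb leaves 1 mutant-side library, which is assumed to vary like the others.

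Summed over the 15 features, normalized Ago2 reads at the 8 genes had overlapping counting intervals in 3 libraries and were low in Mb. The sum was 279.1 normalized reads in Wa (interval 262.3 to 296.7), 278.2 in Wb (247.7 to 311.4), 288.1 in Ma (247.3 to 333.7) and 46.4 in Mb (28.7 to 71.0). Ma thus lay within the counting intervals of both wild-type libraries, and Mb lay below all of them. As a share of all listed reads, which does not use the size factors, the genes took 0.641% in Wa (Wilson 95% interval 0.603 to 0.681), 0.778% in Wb (0.696 to 0.871), 0.723% in Ma (0.624 to 0.837) and 0.144% in Mb (0.0945 to 0.221). By this share Wa and Wb did not overlap, so how near these 2 lay depends on the size factors, while Mb was the lowest on both scales. On the log2 scale the mutant mean was below the wild-type mean by a difference of -1.27, with an exact two-sided permutation p of 1.00, and 2 libraries against 2 cannot give a p below 0.333. The difference was 0.048 without Mb and -2.59 without Ma. Without the Ikzf1 features the sums were 183.7 in Wa (170.1 to 198.1), 229.4 in Wb (201.8 to 259.7), 158.6 in Ma (128.8 to 193.3) and 46.4 in Mb. Ma then lay below both wild-type libraries, with an interval that reached that of Wa but not that of Wb, and the wild-type intervals no longer overlapped.

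**Figure D1:**
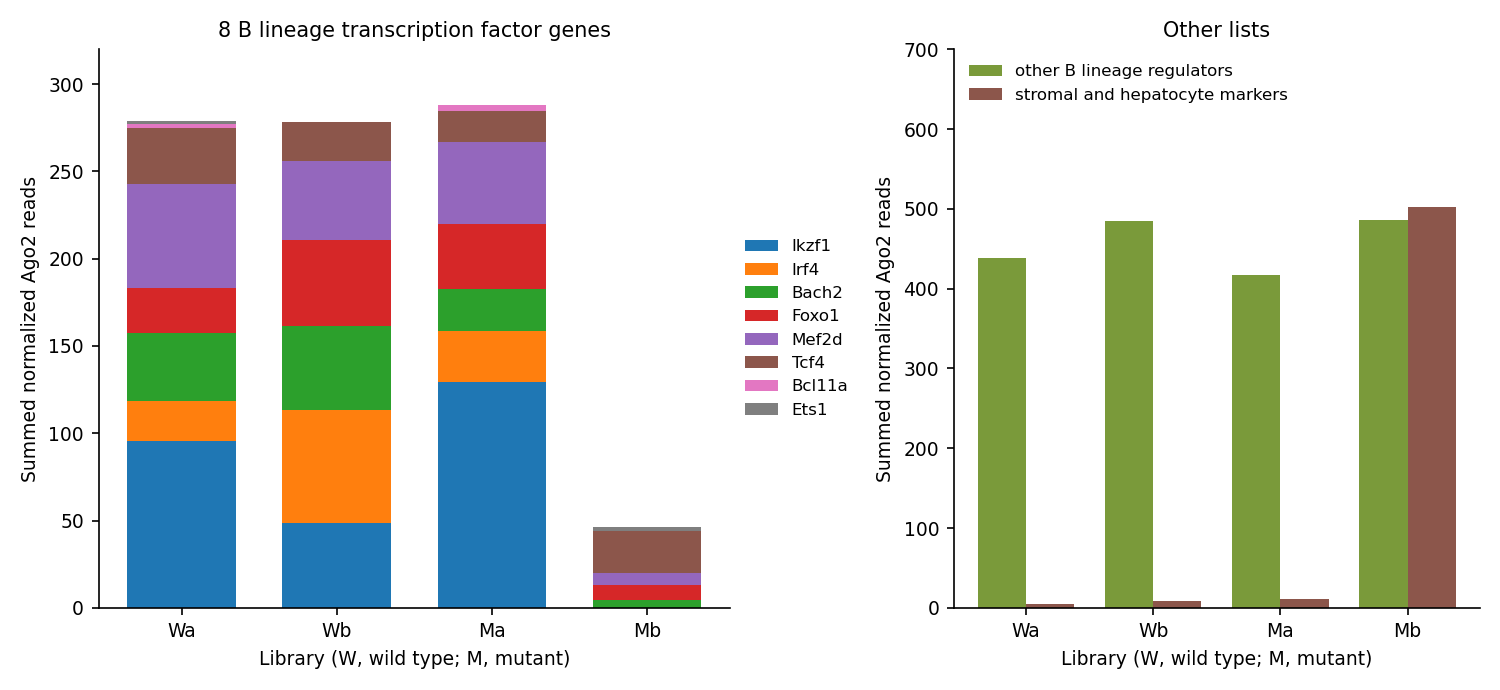
Left, summed normalized Ago2 reads of the 8 genes in each library, stacked by gene. Right, the sums of the other B lineage regulators, a list that also holds the T cell factor Bcl11b, and of the stromal and hepatocyte markers. The bars of the 8 genes reach 279.1, 278.2 and 288.1 in Wa, Wb and Ma and 46.4 in Mb, while the marker bar is 501.9 in Mb and at most 11.3 elsewhere. Feature lengths were not used, so bar heights compare libraries, not genes.

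Ikaros, the zinc finger protein encoded by Ikzf1 (Entrez 22778), sets up chromatin for lymphoid development and restrains leukaemia. Its feature 1 held 326, 42, 68 and 0 reads, the most reads of the 15 features. This was 88.6 normalized reads in Wa (79.2 to 98.7), 38.7 in Wb (27.9 to 52.3), 110.1 in Ma (85.5 to 139.5) and 0 in Mb (up to 6.63). Ma was the highest library and Mb the lowest, so the wild-type libraries lay between the mutant-side libraries, with Ma overlapping Wa within counting error. The wild-type libraries also differed from each other by 2.29-fold, more than their counting intervals allow. Among the 383 features with a mean of at least 20 normalized reads, 24.3% had a ratio between Wa and Wb at least as far from 1. The wild-type mean was 63.6 ± 35.3 (SD, n = 2) and the mutant mean 55.0 ± 77.8 (SD, n = 2). The wild-type mean was 9.60-fold and Ma 16.6-fold above the 3 reads that a 0 in Mb allows. These folds leave out the error of the wild-type mean and of Ma. The log2 fold change was -0.16 (standard error 1.29) in the authors' deposited table. Feature 2 held 25, 11, 12 and 0 reads, or 6.79, 10.1, 19.4 and 0 normalized reads. Again Ma was highest and Mb had no read, but the wild-type mean of 8.46 was only 1.28-fold above the 6.63 that a 0 in Mb allows. The log2 fold change of feature 2 was 0.19 (standard error 1.25) in the authors' deposited table. Without Mb the voom log2 fold change was 0.85 at feature 1 and 1.28 at feature 2, and without Ma it was -5.81 and -2.89. On all 4 libraries voom gave -2.27 and -0.64, so feature 2 changed sign between the deposited table and voom.

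Bcl11a, a zinc finger repressor needed for the earliest B cell progenitors, was thinly read. Its only feature (Entrez 14025) held 8, 0, 2 and 0 reads. With a wild-type mean of 1.09 normalized reads, below the 6.63 that a 0 in Mb allows, no difference was detectable at this depth. The authors' deposited table lists a log2 fold change of 0.28 (standard error 1.53), and voom gave -0.18 without Wb and -0.70 without Ma. Its paralog Bcl11b, a T cell factor, showed another pattern, with 0 reads in Wa, Wb and Ma and 18 in Mb.

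Irf4 (Entrez 16364) encodes an interferon regulatory factor that ends pre-B cell proliferation, starts light chain recombination and later drives plasma cells. Feature 1 held 73, 67, 17 and 0 reads. These were 19.8 normalized reads in Wa (15.5 to 24.9), 61.7 in Wb (47.8 to 78.4), 27.5 in Ma (16.0 to 44.1) and 0 in Mb (up to 6.63). Wb stood above the other libraries beyond its counting interval, and Ma lay between Wa and Wb. The wild-type libraries differed by 3.11-fold, and among the 383 features with a mean of at least 20 normalized reads, 11.5% had a ratio between Wa and Wb at least as far from 1. The wild-type mean of 40.8 ± 29.6 (SD, n = 2) was 6.15-fold above the 3 reads that a 0 in Mb allows. This fold leaves out the spread of the wild-type mean. The deposited log2 fold change was -1.24 (standard error 1.19) in the authors' deposited table, and the voom value was -0.22 without Mb, against -4.88 without Ma. Feature 2, with 12, 3, 1 and 0 reads, had -1.15 (standard error 1.48) in the authors' deposited table. Its wild-type mean of 3.01 normalized reads was too low for the 0 in Mb to say much.

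Bach2 (Entrez 12014) encodes a leucine zipper repressor that opposes the plasma cell programme and mediates the pre-B cell checkpoint. Its summed reads were the most even over the wild-type pair, at 38.9 and 47.9 normalized reads. It was the only one of the 8 genes whose summed reads in both mutant-side libraries lay below both wild-type libraries. Such an order held for 20.1% of all single features and 25.7% of those with at least 20 reads, and its share over genes was not computed. The summed interval of Ma (13.6 to 40.0) reached those of Wa (32.8 to 45.8) and Wb (35.8 to 62.8). Feature 1 held 93, 30, 9 and 1 reads, or 25.3 (20.4 to 31.0), 27.6 (18.6 to 39.5), 14.6 (6.66 to 27.7) and 2.21 (0.0560 to 12.3) normalized reads. The genotypes did not overlap, but the interval of Ma reached those of both wild-type libraries. Feature 2 held 50, 22, 6 and 1 reads, or 13.6, 20.3, 9.71 and 2.21 normalized reads, in the same order. Its genotypes did not overlap either, but the interval of Ma (3.56 to 21.1) reached those of Wa (10.1 to 17.9) and Wb (12.7 to 30.7), and that of Mb (0.0560 to 12.3) reached that of Wa. The authors' deposited table gave log2 fold changes of -1.42 (standard error 0.95, unadjusted p = 0.134) and -1.26 (standard error 1.01, unadjusted p = 0.213). The adjusted p, by Benjamini-Hochberg over the p-values of the authors' deposited table, was 0.806 and 0.955. Without Mb the voom values were -0.79 and -0.63. Bach1, a relative with broader expression, had 2 features, of which the higher held 60, 13, 16 and 1 reads and the lower 8, 1, 9 and 4. The first was low in Mb, and the authors' deposited table lists it at 0.013 (log2), while the second was higher in both mutant-side libraries than in the wild-type pair.

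**Figure D2:**
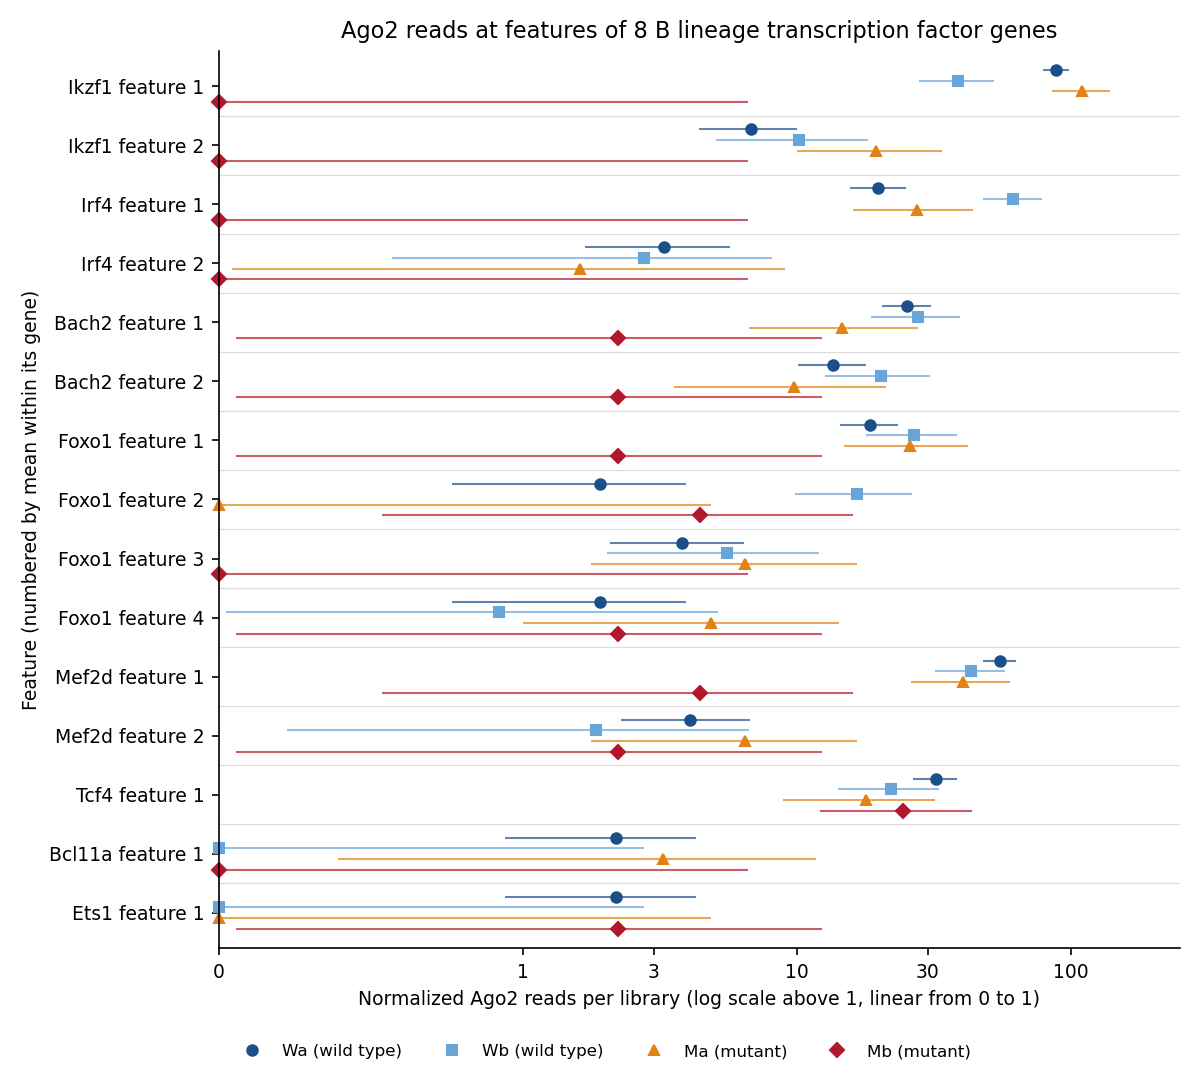
Normalized Ago2 reads of each of the 15 features (rows) in Wa, Wb, Ma and Mb, on an axis that is logarithmic above 1 and linear from 0 to 1; lines are exact 95% Poisson intervals, or reach the 3 reads that a 0 allows. Mb (diamonds) has at most 2 reads in 14 of the 15 features, all but Tcf4, beside 52% of all features in the comparison; Ma (triangles) lies above both wild-type libraries in 6, beside 27.9%, and below both in 6, beside 36.3%.

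Foxo1 (Entrez 56458), the forkhead factor that PI3K signalling removes from the nucleus and that switches on Il7r and the Rag genes, had 4 features that did not share a pattern. Feature 1 held 68, 29, 16 and 1 reads, or 18.5, 26.7, 25.9 and 2.21 normalized reads. Wa, Wb and Ma overlapped within their intervals, and Mb (0.0560 to 12.3) lay below all of them. The log2 fold change of -0.56 (standard error 1.02) in the authors' deposited table became 0.29 by voom without Mb. Feature 2 was highest in Wb, with 7, 18, 0 and 2 reads, or 1.90 (0.765 to 3.92), 16.6 (9.83 to 26.2), 0 (up to 4.86) and 4.42 (0.535 to 16.0) normalized reads. The wild-type libraries therefore differed beyond counting error there, and the value of -1.47 (standard error 1.37) in the authors' deposited table, the lowest log2 fold change of the 15, rests on Wb and Ma. The voom value was 0.14 without Wb and 0.21 without Ma. Feature 3 held 14, 6, 4 and 0 reads in Wa, Wb, Ma and Mb, and its log2 fold change of -0.33 (standard error 1.31) in the authors' deposited table became 0.62 by voom without Mb. Feature 4 held 7, 1, 3 and 1 reads. Feature 4 was the 1 feature of the 15 with both mutant-side libraries above both wild-type libraries, at 4.86 and 2.21 against 1.90 and 0.92 normalized reads, and over all features this held for 13.1%. On 12 reads in all, its log2 fold change, 0.96 (standard error 1.31) in the authors' deposited table, has a 95% interval from -1.60 to 3.52.

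Mef2d (Entrez 17261), a MADS box factor that acts with Mef2c in pre-B cell signalling, held most of its reads in feature 1. That feature had 203, 47, 25 and 2 reads, or 55.2 (47.8 to 63.3), 43.3 (31.8 to 57.6), 40.5 (26.2 to 59.7) and 4.42 (0.535 to 16.0) normalized reads. The genotypes did not overlap, yet Ma differed from Wb by less than counting error, and Mb lay far below both. The authors' deposited table lists -0.98 (standard error 0.97), and voom gave -0.27 without Mb and -3.18 without Ma. Feature 2 held 15, 2, 4 and 1 reads, and had 0.42 (standard error 1.24) in the authors' deposited table.

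Tcf4 (Entrez 21413), an E protein that binds E-box sites beside the product of Tcf3, was the 1 gene, among those with a wild-type mean above what a 0 in Mb allows, whose summed reads in Mb did not lie below both wild-type libraries. Its feature held 118, 24, 11 and 11 reads, or 32.1 (26.5 to 38.4), 22.1 (14.2 to 32.9), 17.8 (8.89 to 31.9) and 24.3 (12.1 to 43.5) normalized reads. All 4 intervals overlapped. The wild-type mean was 27.1 ± 7.04 (SD, n = 2) and the mutant mean 21.1 ± 4.61 (SD, n = 2). In the authors' deposited table its log2 fold change was -0.36. The standard error derived from this and its p was 0.74, the smallest of the 15, with a 95% interval from -1.82 to 1.10. Its voom value stayed between -0.57 and -0.046 whichever library was left out.

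Ets1 (Entrez 23871), an ETS factor that restrains plasma cell formation, had 8, 0, 0 and 1 reads, too few to compare the genotypes. The authors' deposited table lists -0.077 (standard error 1.30) as its log2 fold change, against voom values of 0.083 on all libraries, 2.09 without Wa and 0.88 without Ma.

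How a gene's reads divide among its features does not depend on the size factors. Feature 1 of Ikzf1 took 92.9% of the gene's reads in Wa (Wilson 95% interval 89.7 to 95.1), 79.2% in Wb (66.5 to 88.0) and 85.0% in Ma (75.6 to 91.2), so the wild-type pair differed by more than counting error and Ma overlapped both. Feature 2 of Foxo1 took 7.29% of that gene's reads in Wa (3.58 to 14.3) and 33.3% in Wb (22.2 to 46.6), intervals that do not overlap. In Ma it had 0 of 23 reads, which allows a share of up to 13.0%. For Bach2 the share of feature 1 was 65.0% in Wa, 57.7% in Wb and 60.0% in Ma, with overlapping intervals. The share of feature 1 of Irf4 was 85.9%, 95.7% and 94.4% in Wa, Wb and Ma, and that of Mef2d 93.1%, 95.9% and 86.2%. In Mb the 5 genes with several features held 0 to 4 reads each, too few to compare shares.

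**Figure D3:**
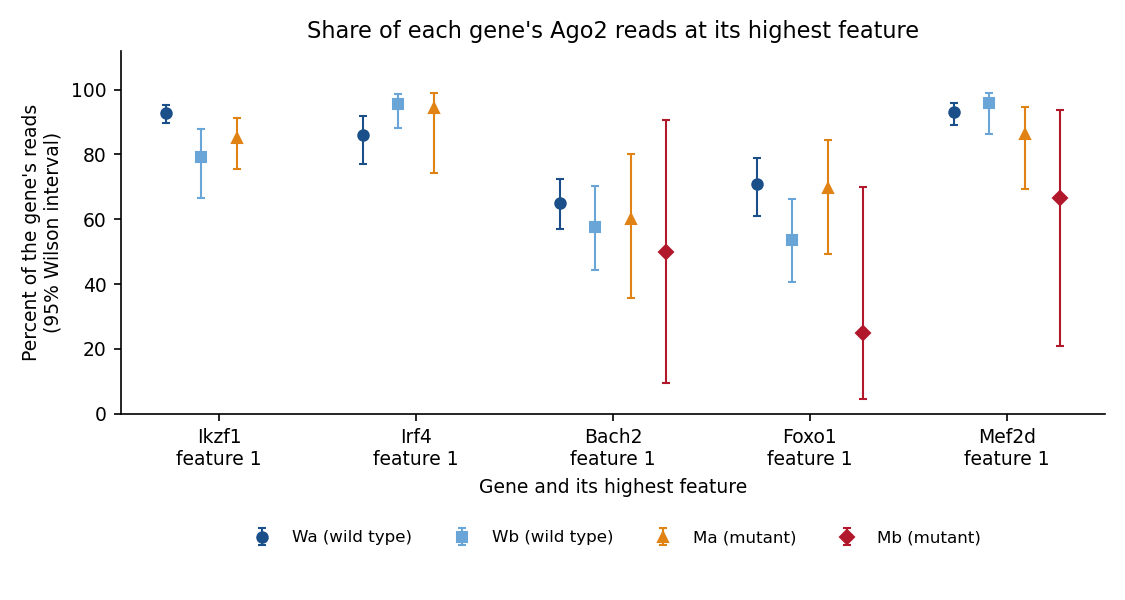
Percent of a gene's reads that fell in its highest feature, for the 5 genes with more than 1 feature, in each library with 95% Wilson intervals. Ikzf1 and Irf4 have no point for Mb because it held 0 reads there; the Ikzf1 intervals of Wa and Wb do not overlap.

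No feature of the 15 passed the threshold in the authors' comparison. After Benjamini-Hochberg adjustment over all 2548 features, 0 of the 15 passed an adjusted p of 0.05, and 0% of all features did. Of the members, 0 had an unadjusted p below 0.05 in the authors' deposited table, against 0.903% of all features as lower and 7.57% as higher in the mutant. By voom on all 4 libraries 0 members were lower at an unadjusted p below 0.05, against 0.157% of all features. The smallest adjusted p of the 15 was 0.806. Of the 15, 11 had a deposited log2 fold change below 0, beside 52.5% of all features, and their median was -0.36, beside -0.070 over all features. In 4 of the 15 the mutant-side pair lay below the wild-type pair without overlap, beside 20.1% of all features. These 4 were both Bach2 features, Mef2d feature 1 and Irf4 feature 2. Among features with at least 20 reads, this order held for 3 of 11 members, beside 25.7% of all such features. The recovery of reads took every feature to hold at least 5 reads in some library, so this minimum was assumed. Irf4 feature 2, Foxo1 features 2 to 4, Mef2d feature 2, Bcl11a and Ets1 reached 5 in wild-type libraries only, which favours lower mutant-side values there. The wild-type mean of Irf4 feature 2, 3.01 normalized reads, was also below the 6.63 that a 0 in Mb allows. Ma alone was lower than either wild-type library in 6 of the 15, beside 36.3% of all features, and Mb alone in 9, beside 41.7%. Without Mb, voom put 8 of the 15 below 0, beside 47.6% of the features in that fit.

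**Figure D4:**
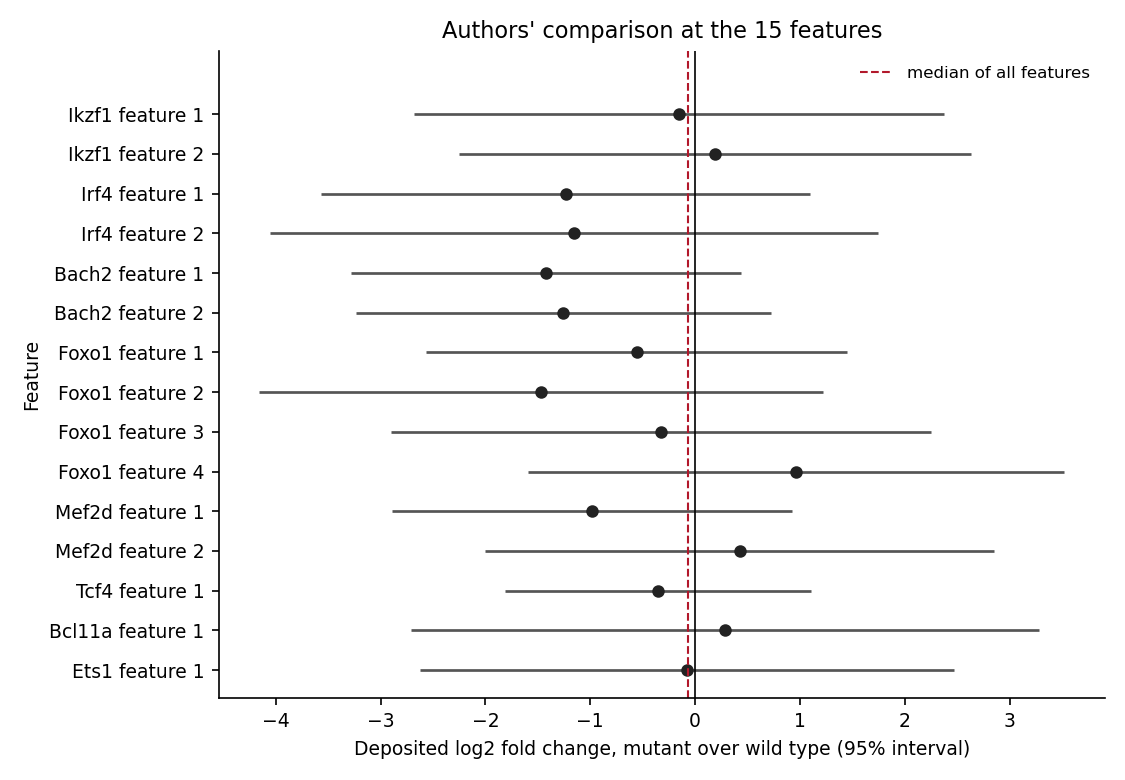
Mutant over wild-type log2 fold change in the comparison of the authors' deposited table for each of the 15 features, with 95% intervals from the derived standard errors; the dashed line is the median of all features, -0.070. Every interval crosses 0, and the narrowest is that of Tcf4, from -1.82 to 1.10.

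The mutant-side libraries were set against the wild-type mean one at a time. Among the 9 members whose wild-type mean exceeded the 6.63 normalized reads that a 0 in Mb allows, Mb was lower than either wild-type library in 7, beside 68.2% of the 886 such features in the table, and Ma did so in 5, beside 44.9%. Mb had 0 reads in 3 of the 9, namely both Ikzf1 features and Irf4 feature 1, beside 15.9% of the 886. At Ikzf1 feature 2 the wild-type mean was only 1.28-fold above that limit, so its 0 says little. With 0.5 added to normalized reads, the log2 ratio of Mb to the wild-type mean had a median of -3.31 over the 9, beside -1.41 over the 886. In Ma it was -0.56, beside -0.26. A choice by a high wild-type mean itself favours lower mutant values. Without that choice the medians were -2.81 over the 15 and -0.29 over all features in Mb, and -0.28 and -0.15 in Ma. These sets differ in depth, since 9 of the 15 but 886 of all 2548 features exceeded 6.63. A feature with a low wild-type mean has less room to fall, and some of the 15 reached 5 reads in wild-type libraries only. The part that depth plays in these medians was not tested. Among the 9, the features at which Mb was not lower than either wild-type library were Tcf4 and Foxo1 feature 2. In the voom fit without Ma, Mef2d feature 1 and Ikzf1 feature 1 had an unadjusted p under 0.05 as lower in the mutant, beside 4.52% of all features in that fit, and their adjusted p from limma was 0.0869 and 0.145. At an adjusted p of 0.05 that fit called 0 of the 15 as lower, beside 1.02% of all features.

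**Figure D5:**
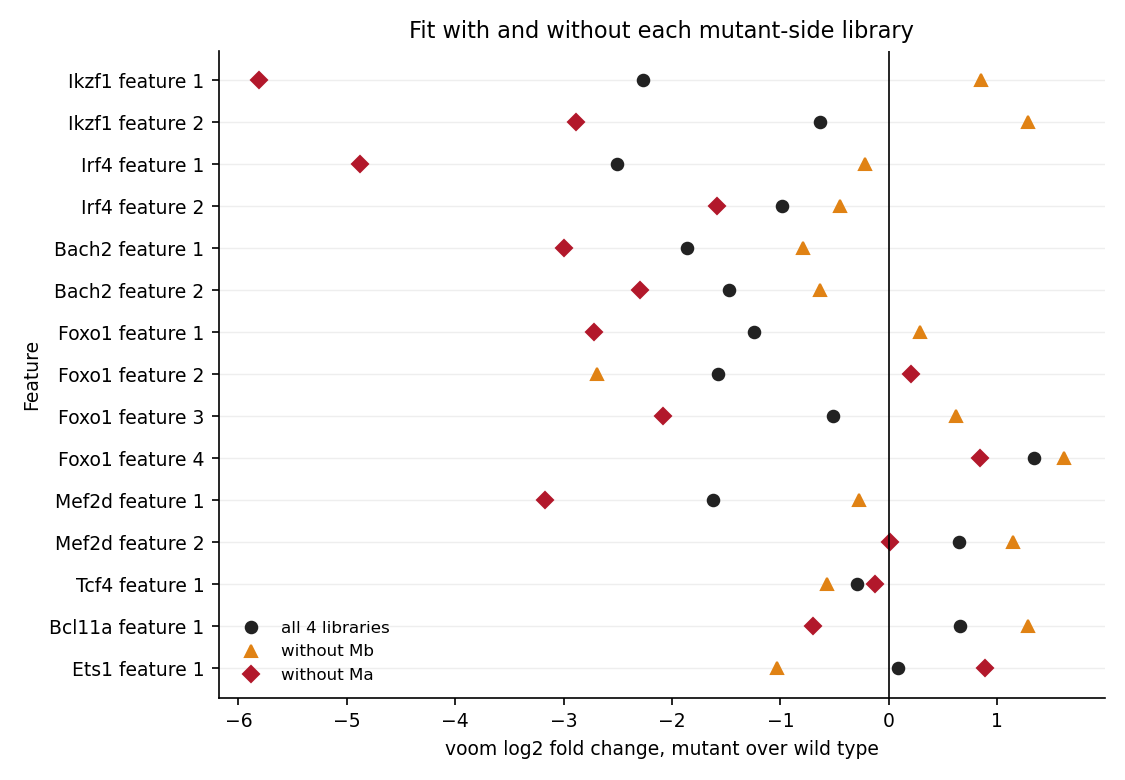
Mutant over wild-type log2 fold change by limma's voom on recovered reads, with all 4 libraries (circles), without Mb (triangles) and without Ma (diamonds), for each of the 15 features. At Ikzf1 feature 1 the value moves from -5.81 without Ma to 0.85 without Mb, while at Tcf4 the markers lie close together.

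Features whose reads divided over the 4 libraries most like those of a member were sought among 379 other features with a mean of at least 20, by the sum of absolute differences between shares. Nearest to Ikzf1 feature 1 were features of Sephs1 (0.0691), with 130, 13, 27 and 1 reads in Wa, Wb, Ma and Mb, and Ppp2r5e (0.0701), with 287, 33, 55 and 2. Both were highest in Ma after normalization. Nearest to Mef2d feature 1 were Ubqln1 (0.0287) and Nabp1 (0.0477), and nearest to Foxo1 feature 1 were the ETS gene Fli1 (0.0652), with 78, 32, 19 and 0 reads, and Rab8b (0.0983). With 4 libraries such likeness is a description only.

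A list of 68 other regulators of the B lineage, which also holds the T cell factor Bcl11b, had 21 genes with features, 31 in all. Of these 16 lay below 0 and 15 above 0 in the authors' deposited table, beside 52.5% of all features below 0. The median was -0.051, beside -0.070 over all features, and 0 passed an adjusted p of 0.05, beside 0% of all features. Of the 31, 2 had an unadjusted p below 0.05 in the authors' deposited table, both higher in the mutant, beside 7.57% of all features. They were Bcl11b at 3.85 (standard error 1.35) and the lower Bach1 feature at 2.37 (standard error 1.12). The 31 features summed to 438.6, 484.5, 417.6 and 486.4 normalized reads, but the sum in Mb rested on a few genes. Klf2, Klf13 and Bcl11b held 276.4 of it, and without these 3 genes, chosen after their values were seen, the sums were 406.0, 372.1, 375.5 and 210.0, with Mb the lowest. Mb had 0 reads in 9 of the 31, beside 25.2% of all features, and in 3 of the 13 with a wild-type mean above 6.63, beside 15.9%. Mycn, a growth-promoting MYC gene, had the highest mean, with 485, 175, 79 and 0 reads at its feature 1. Klf2, a quiescence factor, held 87, 78, 10 and 58 reads, and Cbfb, the partner of RUNX proteins, 144, 32, 35 and 21, so both were well read in Mb. Id3, an inhibitor of E proteins, held 75, 34, 10 and 7 reads and Sox4, needed for pro-B cells, 159, 17, 15 and 6. Without Ma, voom passed 6 of the 31 at an adjusted p of 0.05, and without Mb it passed 0. Of the 6, 5 were higher in the mutant (Bcl11b, Klf13 feature 1, Nr3c1, Zbtb7a feature 2 and Zeb1 feature 2, named after their values were seen), beside 13% of all features in that fit, and 1 was lower (Mycn feature 1), beside 1.02%.

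Of 26 early B cell genes that such factors regulate, 5 had features: Ccnd2, Il7r, Kit, Rag1 and Syk. Of their 7 features 6 lay below 0 in the authors' deposited table, beside 52.5% of all features. The median was -1.05, beside -0.070 over all features. Of the 7, 3 belong to Ccnd2 and are not independent. At an adjusted p of 0.05, 0 passed, beside 0% of all features. At an unadjusted p of 0.05, 0 passed, beside 0.903% of all features as lower and 7.57% as higher. Their sum was 116.9, 179.6, 29.1 and 75.2 normalized reads, and the order of the libraries was set by Ccnd2, the cyclin D2 gene, whose feature 1 held 329, 156, 5 and 31 reads. The 3 Ccnd2 features summed to 100.0, 165.8, 9.71 and 75.2 normalized reads, with Ma the lowest. The other 4 features summed to 16.8, 13.8, 19.4 and 0, with Mb the lowest, and Kit, the stem cell factor receptor gene, held more in Ma (12.9) than Ccnd2 did.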

How the data were processed

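The samples were 2 wild-type and 2 Bim3'UTRmut/mut cultures, given 500 µM 4-thiouridine over 5 hours before crosslinking at 365 nm, per the labels' protocols. CASAVA 1.8.2, BWA 0.7.12-r1039 and DESeq2 were used on the builds mm9 and NCBIM37, per the submitters' processing notes. Settings, feature definition and PCR copy removal: not given in the sources used here.

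The deposited table holds the mean signal over libraries (reads divided by size factors), a log2 fold change and an unadjusted p-value, per the file headers, all computed by the authors with DESeq2. The table's name sets the direction, mutant relative to wild type. Benjamini-Hochberg adjustment (statsmodels 0.14.6) was computed over all 2548 features, and standard errors as log2 fold change over the normal quantile of p.

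Each mean is a sum of whole reads weighted by 4 size factors (3.68, 1.09, 0.618 and 0.452 for Wa, Wb, Ma and Mb). Each feature was taken to hold at least 5 reads in some library. Exactly 1 whole-read solution was found for 100.0% of features, with a largest misfit of 5.26e-13 normalized reads. Libraries were assigned to sides by the split whose sign matched that of the deposited fold change in 98.8% of features (67.6% for the next split). Recovered reads were fitted with voom of limma 3.58.1 in R 4.3.3 as an alternative, with library sizes proportional to the size factors. The steps were tested on simulated data in which no library stood apart as Mb did, so those tests do not cover such a library. Of the identifiers, 2540 matched RefSeq GRCm38.p6, used for symbols only.

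The members, lists and tests were chosen with earlier results of these data known. Named genes were every member feature, other regulators with an unadjusted p under 0.05 or among the 5 highest means, and the 2 features nearest in pattern to each of the 3 members with the highest summed mean; the early B cell genes, stromal markers, Il7r and Rag1 are named as measured members of their lists. With 2 libraries a side, p-values measure only the spread between these cultures.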

Additional observations from a re-analysis of the deposited data

How the results depend on the processing

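For the 8 genes, 0 features passed an adjusted p of 0.05 under every alternative run: a threshold of 0.10, features at or above the median mean, voom on recovered reads, and voom without each library in turn. Voom without single libraries put 8 to 12 of the 15 features below 0 and called 0 to 2 lower at an unadjusted p under 0.05, the 2 without Ma. The summed log2 difference ran from -2.59 without Ma to 0.048 without Mb, so its direction depends on Mb. Scaling to listed reads gave -1.13, a shift of 0.14 that applies to every feature. For the other B lineage regulators, counts past 0.05 ran from 0 to 6, the 6 (5 higher, 1 lower) without Ma, beside 13% higher and 1.02% lower of all features; there Mb alone stands for the mutant and was assumed to vary like the other libraries; the early B cell genes gave 0 throughout.

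Signs that turned were these. Ikzf1 feature 1 ran from -5.81 without Ma to 0.85 without Mb, and feature 2 from -2.89 without Ma to 1.28 without Mb, with -0.64 by voom on all libraries and -0.34 on features with at least 20 reads. Foxo1 feature 1 ran from -2.72 to 0.29 and feature 3 from -2.08 to 0.62, again without Ma and without Mb. Foxo1 feature 2 ran from -2.72 without Wa to 0.21 without Ma. Bcl11a ran from -0.70 without Ma to 2.00 without Wa. Ets1 ran from -1.03 without Mb to 2.09 without Wa, with 0.083 by voom on all libraries. No paired analysis was possible because the deposited columns carry no replicate numbers, and which recovered library has which number is not known. Depth limits Mb most, with 14539 reads in listed features.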
